A study of Arabidopsis thaliana with 12 samples.

Results

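CML30 (AT2G15680), TBL21 (AT5G15890) and AGP14 (AT5G56540) are coding genes of Arabidopsis thaliana that carried more DNA methylation in stem cell nuclei of the ddm1 mutant than in wt, and their levels are described in every sequence context and group. They are 3 of 27444 protein-coding genes in the deposited table and were picked by name for their higher level in ddm1 than in wt, both in control and after heat. The ddm1 against wt values of these 3 genes are therefore a description without a test, in every context. The levels themselves narrow the choice: CML30 and TBL21 were higher in CHG and CHH and lower in CG, whereas AGP14 was higher in CG, with a small CHG level and almost no CHH.

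Nuclei were sorted from inflorescence apices on a CLV3-driven histone reporter that marks shoot stem cells, and all groups carry this reporter in the Col-0 background. The 12 samples form 6 groups of 2, namely wt, the insertion mutant poliv, which lacks the largest subunit of RNA polymerase IV, and the insertion mutant ddm1, allele ddm1-10, which lacks the chromatin remodeller DDM1, each without heat ("control") or after heat ("heat"). Heat-treated plants were kept at 37 °C for 1 day from day 6, moved to soil at day 7 and sampled at day 28 after 21 days on soil, and control plants were sampled at the same age. The deposited columns hold 1 value per group for both samples, so no value has a replicate error, and a test compares pooled libraries and not plants. The labels do not say whether the 2 samples of a group came from separate plants, and methylation calls do not show which cells were sorted.

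Plants methylate cytosines in 3 contexts, CG, CHG and CHH, where H is A, C or T. CG methylation is copied at each division by MET1 and is found in transposable elements (TEs) and in the bodies of many transcribed genes. CHG methylation is kept by CMT3 together with histone H3 lysine methyltransferases such as KYP (SUVH4), mostly at TEs, and the demethylase IBM1 removes that histone mark from genes. CHH methylation depends on RNA-directed methylation, which starts with RNA polymerase IV, and on CMT2. DDM1 opens nucleosome-bound heterochromatin to these enzymes, and ddm1 mutants are known for losing methylation at TEs.

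Coordinates are those of the TAIR10.1 assembly. CML30, a calmodulin-like calcium sensor, is a single-exon gene at chr2:6830995-6831641 on the plus strand. TBL21 belongs to the trichome birefringence-like family, whose characterised members O-acetylate cell wall polysaccharides, and has 2 exons at chr5:5187587-5189348 on the minus strand. AGP14, an arabinogalactan peptide of the cell surface, is a single-exon gene at chr5:22893151-22893651 on the plus strand. The starts of the coding sequences are printed to show sites of the context with the largest gain at each gene. Levels are of whole genes, so they do not show which sites carry the difference. Capitals mark CAG, CTG, CCG and CGG in CML30 (chr2:6831024-6831323) and TBL21 (chr5:5189049-5189348, minus strand), which are the CHG sites of both strands, and CG in the whole coding sequence of AGP14 (chr5:22893243-22893425), all from RefSeq.
CML30: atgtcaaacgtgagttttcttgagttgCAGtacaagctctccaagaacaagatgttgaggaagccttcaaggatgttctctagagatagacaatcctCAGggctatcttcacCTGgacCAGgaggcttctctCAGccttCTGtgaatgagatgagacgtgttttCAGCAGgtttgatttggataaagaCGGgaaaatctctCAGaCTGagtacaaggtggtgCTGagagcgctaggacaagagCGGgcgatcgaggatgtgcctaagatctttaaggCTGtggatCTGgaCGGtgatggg
TBL21: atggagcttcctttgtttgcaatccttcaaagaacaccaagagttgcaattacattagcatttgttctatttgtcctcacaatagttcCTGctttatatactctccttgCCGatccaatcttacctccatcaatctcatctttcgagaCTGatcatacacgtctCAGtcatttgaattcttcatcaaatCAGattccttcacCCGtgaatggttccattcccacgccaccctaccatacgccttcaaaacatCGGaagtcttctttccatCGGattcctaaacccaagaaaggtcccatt
AGP14: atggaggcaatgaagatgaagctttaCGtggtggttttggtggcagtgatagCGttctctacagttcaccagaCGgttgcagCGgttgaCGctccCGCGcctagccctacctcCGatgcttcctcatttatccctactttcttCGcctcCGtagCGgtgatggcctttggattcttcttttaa

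The printed 300 bases of CML30 hold 16 CHG motifs and those of TBL21 hold 8, and the 183 coding bases of AGP14 hold 11 CG and 10 CHG motifs. CCG and CGG contain a CG and so belong to both contexts. Such motifs are in nearly every gene: among 25273 genes with 300 coding bases, 99.9% of the starts hold a CG, with a median of 12, and 99.99% hold 1 of the CHG motifs, with a median of 14. Over the whole gene and both strands CML30 has 52 CHG cytosines, or 8.04 per 100 bp, which is more than in 94.3% of 27444 genes. TBL21 has 122, or 6.92 per 100 bp, more than in 75.3% of genes. AGP14 has 18, or 3.59 per 100 bp, more than in only 5.79% of genes, beside 28 CG cytosines at 5.59 per 100 bp. The median gene has 6.08 CHG and 5.01 CG cytosines per 100 bp, so AGP14 has the sparsest CHG sites of the 3. Calls per CHG cytosine ranged from 9.81 to 16.8 at CML30, from 11.3 to 17.2 at TBL21 and from 5.22 to 10.7 at AGP14, which makes the AGP14 levels the least precise.

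At CML30 the CHG level, the share of CHG calls that were methylated, was 0.98% in the wt control group (5 of 510 calls) and 0.829% after heat (7 of 844), and poliv was at 1.03% (9 of 876) and 0.865% (6 of 694). It was 58.7% in ddm1 control (477 of 812 calls, 95% Wilson interval 55.3 to 62.1%) and 63.2% in ddm1 heat (521 of 825, 59.8 to 66.4%). All 4 groups with DDM1 thus lay near 1% and both ddm1 groups near 60%. The CHH level of CML30 was between 0.402% and 1.02% in the wt and poliv groups, 8.19% in ddm1 control (191 of 2332 calls) and 9.55% in ddm1 heat (248 of 2596). Its CG level went the other way: wt had 64.4% (control, 210 of 326 calls) and 63.6% (heat) and poliv had 62.7% and 58.8%, against 48.2% in ddm1 control (248 of 515) and 39.8% in ddm1 heat (185 of 465). In ddm1 the CHG level of CML30 was above its CG level, the reverse of wt. Intervals throughout cover counting error only, since each group has 1 pooled value. Sequenced copies of a molecule are not told apart beyond removal of duplicates. Intervals and tests also treat every call as an independent draw. Several calls can come from the same read, so the intervals can be too narrow and the p-values too small.

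TBL21 showed a similar set of levels from more calls. For CHG, wt stood at 1.30% (control, 18 of 1381 calls) and 1.48% (heat, 31 of 2099), and poliv at 5.09% (control, 105 of 2061) and 1.08% (heat, 19 of 1764). The level was 55.9% in ddm1 control (982 of 1758 calls, 53.5 to 58.2%) and 56.5% in ddm1 heat (1007 of 1783, 54.2 to 58.8%). The ddm1 groups stood apart from the other 4, and poliv control was the highest of those. The CHH level was 0.585% (control) and 0.996% (heat) for wt and 0.486% and 0.808% for poliv, but 11.5% in both ddm1 groups (774 of 6702 and 749 of 6531 calls). The CG level of wt was 63.8% (control, 701 of 1099 calls) and 66.6% (heat) and that of poliv 61.5% and 62.2%, against 47.9% in ddm1 control (688 of 1435) and 52.2% in ddm1 heat (746 of 1429). In ddm1 the CHG level of TBL21 was 7.91 points above its CG level in control and 4.27 points above it in heat.

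AGP14 differed from both. Its CG level was 1.25% for wt control (2 of 160 calls), 0.621% for wt heat (2 of 322), 1.84% for poliv control (6 of 326) and 0% for poliv heat (0 of 193, which allows up to 1.55%). It was 53.1% in ddm1 control (102 of 192 calls, 46.1 to 60.1%) and 51.6% in ddm1 heat (98 of 190, 44.5 to 58.6%). The 4 groups with DDM1 thus lay under 2% and both ddm1 groups above 50%. In CHG there was no methylated call in wt control (0 of 94, which allows up to 3.19%), wt heat (0 of 193, up to 1.55%) and poliv control (0 of 181, up to 1.66%) and 1 of 128 in poliv heat, against 9 of 118 in ddm1 control (7.63%, 4.06 to 13.9%) and 5 of 111 in ddm1 heat (4.50%, 1.94 to 10.1%). The CHH level of AGP14 was 0.204% (control, 1 of 491 calls) and 0.599% (heat) in wt, 0.248% in ddm1 control (2 of 807) and 1.54% in ddm1 heat (13 of 846), and its control pair did not differ beyond the intervals.

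**Figure D1:**
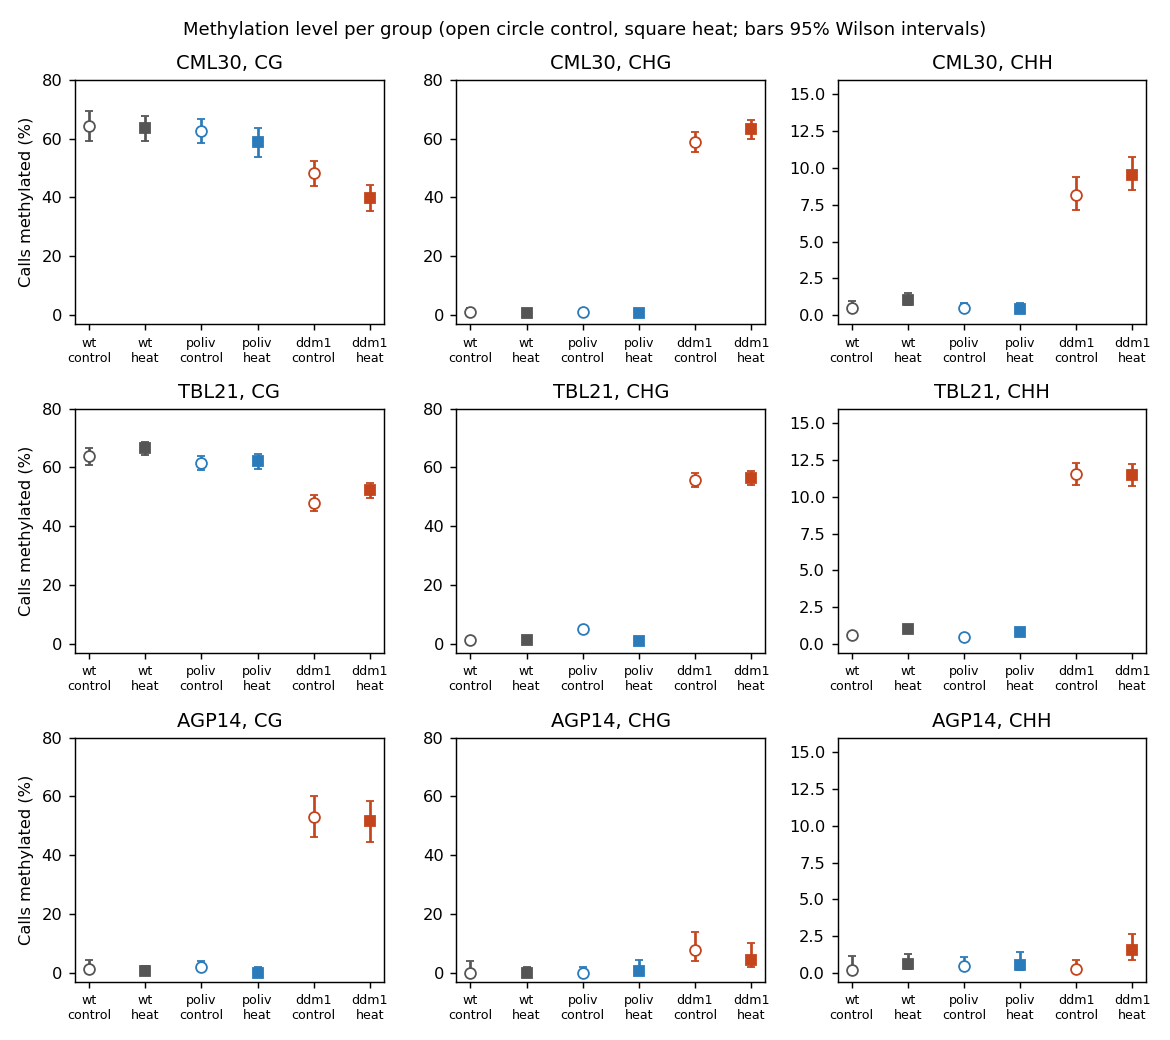
Share of calls that were methylated (percent, vertical axis) at CML30, TBL21 and AGP14 in the CG, CHG and CHH contexts for the 6 groups, with control as open circles, heat as squares and 95% Wilson intervals as bars; the CHH axes end at 16%. In ddm1, CHG levels of CML30 and TBL21 lie between 55.9% and 63.2% while CG falls to between 39.8% and 52.2%, and AGP14 reaches 51.6% to 53.1% in CG.

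Among all protein-coding genes these differences stand at the edge of the distribution, which is how the genes came to be chosen. The mean ddm1 minus wt difference of the control and heat pairs was 60.0 points in CHG at CML30, the highest of 26952 genes with a CHG value in all groups, and 54.8 points at TBL21, the next. The median over these genes was 0.20 points. Only 3 of 26886 genes with values in all contexts gained 50 points or more in CHG, 12 gained 40 or more and 100 gained 20 or more, and of those 100, 78 had at least 20% CG and under 5% CHG in wt, as CML30 and TBL21 did. The share of all genes with those wt CG and CHG levels was not counted. CG was lower in ddm1 in 82 of the 100, beside 71.2% of the 26886 genes. In 11 of the 100 the CHH level rose by 5 points or more. Among 27129 genes ranked by CHH gain, rank 20 had 5.05 points and rank 21 had 4.79. In CHH, TBL21 had rank 2 with 10.7 points and CML30 rank 7 with 8.12 of 27129 genes. In CG, AGP14 had the highest difference of 26975 genes, 51.4 points, and the next gene, AT1G48355, named after its values were seen, had 24.5 points. AT1G48355 was also high in poliv (26.3% in control and 29.1% in heat), where AGP14 had 1.84% and 0%. CG gains over wt of this size were rare: 20 genes gained 10 points or more and 2 gained 20 or more, both with under 5% CG in wt. Most of the 20 genes, but not AGP14 and some others, had both poliv levels above both wt levels. In CHG, AGP14 had rank 493 with 6.07 points.

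**Figure D2:**
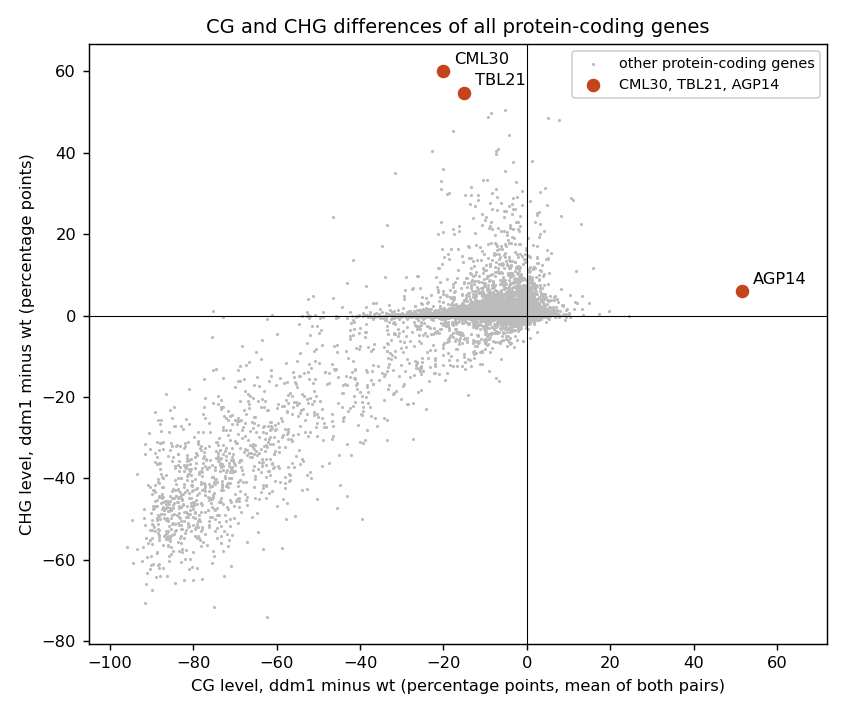
Difference in CG level (horizontal axis) and in CHG level (vertical axis), ddm1 minus wt in percentage points and averaged over the control and heat pairs, for protein-coding genes (grey) and for CML30, TBL21 and AGP14 (red). CML30 and TBL21 sit at the top with CHG differences of 60.0 and 54.8 points and CG differences of -20.0 and -15.1, and AGP14 sits alone at the right with 51.4 points in CG and 6.07 in CHG.

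At CML30 and TBL21, but not at AGP14, the CHG levels reached in ddm1 were above the median TE of wt. The ddm1 control level of AGP14, 7.63%, lay above 29.8% of TEs in wt control. The ddm1 control level of CML30, 58.7%, lay above 76.8% of 11807 TEs in wt control, whose median was 41.4%, and that of TBL21 above 71.1% of them. In CHH the ddm1 control levels of CML30 and TBL21 lay above 84.5% and 90.1% of 25540 TEs in wt control, whose median was 2.25%. The CG levels were not at the level of most TEs: the 53.1% of AGP14 lay above 30.8% of 12828 TEs in wt control. Within ddm1 itself the median TE stood at 7.50% CG and 2.78% CHG in control, and the ddm1 control levels lay above those of 99.3% (CML30) and 99.1% (TBL21) of TEs of that group in CHG and, for AGP14, above 94.7% in CG. In wt control, the CG levels of CML30 and TBL21 lay above 96.0% of genes each and that of AGP14 above 39.9%, and in wt heat that of AGP14 lay above 18.1%.

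Neighbouring genes that share no base with the 3 genes were not chosen by their level, and the 10 annotated loci on each side of each gene were tested by Fisher's exact test between ddm1 and wt, and counted where control and heat pairs both passed an adjusted p of 0.05 in the same direction. Over all genes the shares called were, for CHG, 7.79% higher and 4.24% lower, for CG 0.956% and 30.9%, and for CHH 1.56% and 2.45%. AT2G15690 and AT5G15880 overlap CML30 and TBL21 and were left out, a step chosen after seeing the data. Of the 58 other neighbours 42 were protein-coding with values in all groups, and of these 5 had more CHG methylation in ddm1 and 1 less, 3 had more CG methylation and 15 less, and 1 had more CHH methylation and 1 less. With the statistic scaled for the spread over all genes these counts fell to 2 with more CHG methylation. In CG they fell to 0 with more and 5 with less. Over all genes this statistic called 1044 of 26952 higher in CHG, and 8 of 26975 higher and 3459 lower in CG. The CHG calls lost were SMC5, AT5G15980 and Cpn60beta3. The CG calls kept were AGL95, AT2G15710, AT2G15760, PUM12 and AT5G56560, all lower in ddm1.

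CML30 lies wholly inside AT2G15690, a single-exon gene on the opposite strand (chr2:6830995-6833777), at its 3' end. It is assumed here that the authors counted calls of the shared bases in both genes, since the gene spans they used were not seen. The CHG level of AT2G15690 was 26.7% in ddm1 control against 0.552% in wt, and 30.2% in ddm1 heat against 0.899%, given without a test because it holds the calls of CML30. With the calls of CML30 taken out, a step chosen after seeing the data, the rest of the gene had 4 of 1121 methylated CHG calls in wt control (0.357%) and 16 of 1714 in wt heat (0.933%), against 176 of 1637 in ddm1 control (10.8%, 9.34 to 12.3%) and 237 of 1683 in ddm1 heat (14.1%, 12.5 to 15.8%). Under that assumption the ddm1 CHG level of the rest was lower than that of CML30. It was above its own wt level, with intervals that did not overlap. In CHH the rest went from 0.588% and 0.509% (wt) to 1.79% and 3.37% (ddm1), and its CG level was 27.0% and 30.1% in wt against 25.8% and 26.1% in ddm1. The CG intervals of the rest overlapped in the control pair (24.6 to 29.6% in wt and 23.8 to 27.9% in ddm1), while CML30 itself was lower by 16.3 points there.

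Farther from CML30 no other neighbour was called higher in CHG. On the other side AT2G15670, 1373 bp away, was called in no context, with CHG levels between 0.382% and 0.916% over the wt and ddm1 groups, and AGL95, an AGAMOUS-like MADS-box gene, was lower in CG only (11.6% and 9.01% in wt, 0.541% and 0.428% in ddm1). The lncRNA AT2G06465, which lies 574 bp from CML30 within AT2G15690 and was not tested, had CHG levels of 0.328% and 1.06% in wt against 2.83% and 3.37% in ddm1. AT2G15695, 2238 bp away, was lower in CG (34.9% and 37.9% in wt, against 28.6% and 25.9% in ddm1) and not called in CHG. AT2G15730 and AT2G15760 were also lower in CG, as was AT2G15610, whereas AT2G15580 and NIR1, the nitrite reductase gene, were slightly higher, by at most 3.22 points. AT2G15710, 11006 bp away, lost methylation in all contexts, its CG level being 10.3% instead of 86.8% in the control pair and its CHG level 9.25% instead of 64.7%.

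On each side of TBL21 the nearest gene had more CHG methylation in ddm1 than in wt, by less than TBL21 itself. On the side of AT5G15880 this can include calls shared with TBL21. TBL19, a gene of the same family 27 bp away at chr5:5189376-5192176, rose in CHG from 0.215% to 10.1% in the control pair and from 0.288% to 14.1% in the heat pair (adjusted p = 1.6e-27 and 4.4e-51, Fisher's exact test), and in CHH from 0.269% to 2.63% and from 0.568% to 3.83%. Its CG level was 15.2% and 16.0% in wt against 12.4% and 13.7% in ddm1 and was not called. AT5G15880, on the opposite strand, shares 120 bp with the end of TBL21 that lies away from its coding start, and 4 of its 170 CHG cytosines are in the shared bases. Its CHG level was 0.445% and 1.06% in wt against 3.95% and 5.48% in ddm1, also given without a test because the shared calls were not taken out. The next loci, AT5G15910 at 3493 bp and AT5G15870 at 2638 bp, were not called in CHG. SMC5, a subunit of a DNA repair complex, and AT5G15980 were called higher in CHG at levels that stayed under 3% in ddm1, and the SMC5 call was lost after matching the background. AT5G15870, AT5G15843, COL1, a CONSTANS-like gene, SMC5 and PAM1 were lower in CG, calls that did not hold with the scaled statistic.

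Next to AGP14 no locus had a comparable CG level. AT5G56530, 1284 bp before it, had CG levels of 8.29% and 8.76% in wt against 7.69% and 8.52% in ddm1 and was called in no context. The transcribed pseudogene AT5G56544, 970 bp after it and not tested, had CG levels of 1.32% and 0.37% in wt, with 0.47% in both ddm1 groups. The lncRNA AT5G08585 was at or under 0.87% CG in these groups, and OXS3 was not analysed here. The nearest gene with a called CG gain was AT5G56570, 9084 bp away, with 7.88% and 7.67% in wt against 15.5% and 16.4% in ddm1, and its CHG level rose from 0.631% and 0.900% to 5.88% and 8.71%. With the scaled statistic its CHG call held and its CG call did not. Cpn60beta3, a chaperonin subunit, was higher in CHG by 1.47 and 1.08 points and lower in CG, and GulLO4, PUM12, a Pumilio RNA-binding protein gene, and AT5G56560 were lower in CG.

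**Figure D3:**
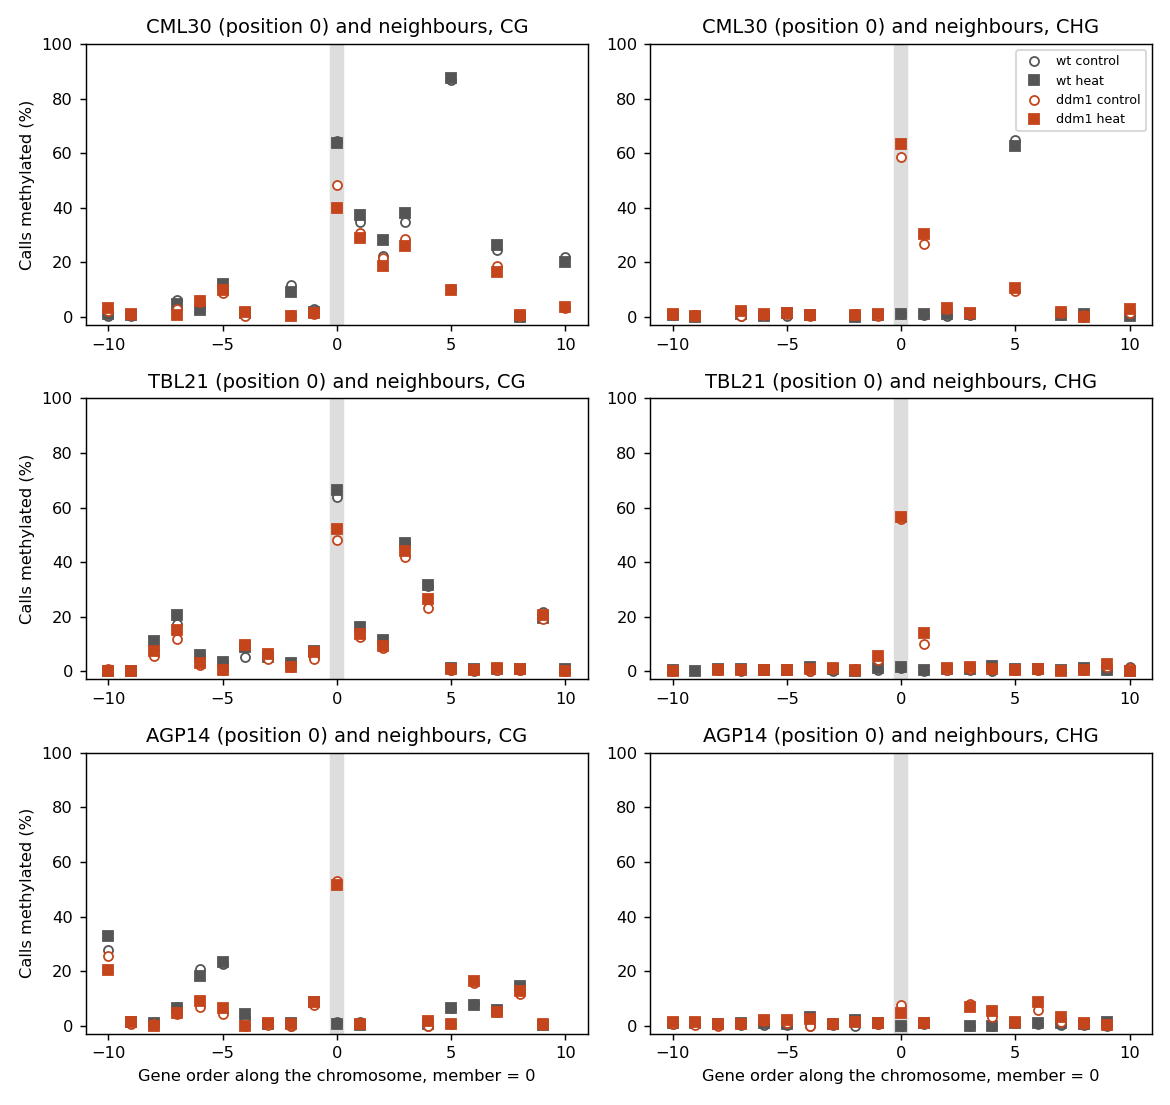
Share of calls methylated (percent) in CG (left) and CHG (right) at CML30, TBL21 and AGP14 (grey band, position 0) and at the 10 annotated loci on each side, in gene order, for wt and ddm1 control and heat; each point is 1 pooled group and loci without a value have no point. In CHG the ddm1 levels are up to 30.2% at AT2G15690, which holds the calls of CML30, and up to 14.1% at TBL19 beside TBL21, AT2G15670 on the other side of CML30 is under 1%, and no locus beside AGP14 comes near its CG level of 51.6% to 53.1%.

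Among genes of the same families the highest CHG gain was 13.9 points, against 60.0 at CML30 and 54.8 at TBL21, and the highest CG gain was 19.7 points, against 51.4 at AGP14. The lowest CG difference in these families was -23.0 points, at AGP19, beside -20.0 at CML30 and -15.1 at TBL21. Of 20 other calmodulin and calmodulin-like genes with these symbols in the gene table, 1 was higher in CHG and none lower, and the median CHG difference was 0.09 points beside 0.20 over all genes. The one called was CAM4, a calmodulin, with CHG levels of 0.60% and 1.30% in wt against 6.63% and 14.7% in ddm1, and its CG level was lower (30.1% and 26.5% in wt, 15.0% and 15.8% in ddm1). AT1G76640, also listed in this family, was called higher in CG (0.901% and 0% in wt, 20.5% and 19.8% in ddm1) and not in CHG. Unlike AGP14, it was also above wt in poliv, with CG levels of 10% in control and 17.3% in heat. AGP14 had 1.84% and 0% in these poliv groups. The CG calls of CAM4 and AT1G76640 did not hold with the scaled statistic. None of the 20 was called in CHH.

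Of 44 other trichome birefringence-like genes, 4 gained CHG methylation and none lost it, with a median difference of 0.37 points, and 11 had less CG methylation and none more. Over all genes 7.79% were called higher in CHG and 30.9% lower in CG. TBL22 had CHG levels of 0.623% and 0.664% in wt against 15.0% and 14.1% in ddm1, TBL19 is the neighbour described above, and YLS7 and TBL6 had smaller gains of 3.54 and 2.10 points that were not called with the scaled statistic. TBL22 and TBL19 were also the 2 called higher in CHH, and the CHH call of TBL22 did not hold with the scaled statistic. Of 30 other arabinogalactan protein genes none was called in CHG or CHH, with a median CHG difference of 0.06 points and a largest one of 1.05, and AGP19 was the only one called in CG, lower in ddm1 (68.3% and 66.4% in wt, 47.3% and 41.2% in ddm1). The CG call of AGP19 did not hold with the scaled statistic. The largest CG gain of these 30 arabinogalactan protein genes was 0.91 points, against 51.4 at AGP14.

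**Figure D4:**
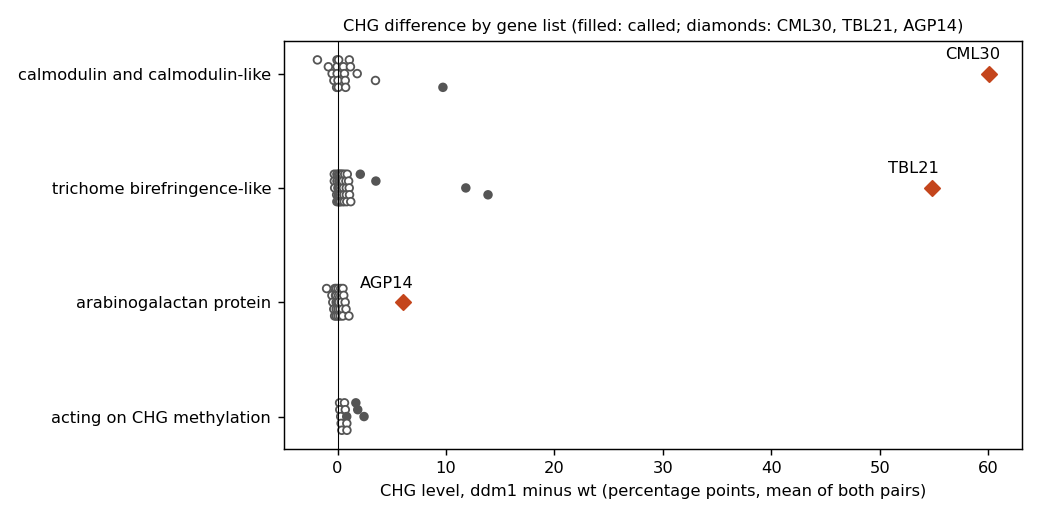
Difference in CHG level, ddm1 minus wt in percentage points averaged over both pairs, for the genes of 4 lists (one row each, points spread vertically for sight only; filled points were called in CHG), with CML30, TBL21 and AGP14 as diamonds in the rows of their families. Outside the diamonds the highest differences are 13.9 points among trichome birefringence-like genes and 9.72 among calmodulin genes.

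Genes that act on CHG methylation were compared as loci, which says nothing of their activity. Of 13 genes 4 had a called CHG gain and none a loss, beside 7.79% of all genes with a gain, and 7 a called CG loss and none a gain, beside 30.9% with a loss. With the scaled statistic the CHG call of CMT3 was lost, and 5 of the 7 CG calls held. Over all genes that statistic called 1044 of 26952 higher in CHG and 3459 of 26975 lower in CG. The 4 were CMT3, the CHG methyltransferase (1.28% and 1.25% in wt, 2.76% and 3.50% in ddm1), KYP, listed as SUVH4, the histone methyltransferase that partners it (0.390% and 0.707%, then 2.29% and 2.19%), EDM2, which promotes full-length IBM1 transcripts (0.377% and 0.591%, then 2.09% and 3.77%), and the DNA demethylase DME (0.413% and 0.842%, then 1.34% and 1.61%). Their gains of at most 2.45 points were small beside those of CML30 and TBL21. The disrupted gene itself, DDM1 (AT5G66750, listed as CHR1), had rank 6 of all genes in CHG gain, with 0.434% in wt control, 49.5% in ddm1 control and 48.7% in ddm1 heat.

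The genes with the most similar levels were found as those with the smallest Euclidean distance over the 18 levels of 3 contexts and 6 groups. CML30 and TBL21 were nearest to each other, at a distance of 16.2 points, although they lie on different chromosomes. Next for CML30 came AT2G03770 at 28.6, HEB1 at 33.9, OFP14, an OVATE family gene, at 39.99 and AT5G45790 at 40.7 points, and for TBL21 AT2G03770 at 25.1, OFP14 at 32.4, HEB1 at 35.6 and AT1G57700 at 37.4. These genes shared high CG and low CHG in wt, from 44.1% to 69.2% and from 0% to 3.35%, and CHG levels from 30.5% to 51.5% in ddm1. AGP14 had no close match: its nearest genes, AT5G59845, AT2G24683, AT1G76640, CRLK1, a receptor-like kinase gene, and AT5G46877, were 49.6 to 51.4 points away, with ddm1 CG levels from 15.6% to 24.3%. Since the levels include the values by which the genes were chosen, these distances are a description.

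Heat and control differed at few of the contexts and genes 21 days after the move to soil. Of 27 comparisons of heat with control (3 genes, 3 contexts and 3 genotypes), 3 passed Fisher's exact test after Benjamini-Hochberg adjustment over all genes, and 6 had an unadjusted p under 0.05. Over all genes the share called in either direction was, in the order wt, poliv and ddm1, 1.48%, 2.85% and 4.39% for CG, 1.83%, 0.675% and 6.85% for CHG, and 40.3%, 31.4% and 44.2% for CHH. The high CHH shares go with the level of chloroplast DNA, which is unmethylated and so measures unconverted cytosines: from control to heat it went from 0.39% to 0.703% for wt, from 0.404% to 0.704% for poliv and from 0.45% to 0.805% for ddm1. The CHH calls at members were TBL21 in wt, where heat was 0.41 points higher (adjusted p = 0.0406, exact test), and AGP14 in ddm1, where heat was 1.29 points higher (adjusted p = 0.0251, exact test). Neither was called once the background of the columns was matched (adjusted p = 1 and 0.361, exact test).

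In ddm1 no heat difference in CG or CHG passed the adjusted test at the 3 genes. At CML30 the CHG level was 4.41 points higher in heat, with a 95% Newcombe interval from -0.32 to 9.11 points, and the CG difference was -8.37 points (-14.5 to -2.15, p = 0.0101, adjusted p = 0.126, exact test). At TBL21 the CHG difference was 0.62 points (-2.65 to 3.88) and the CG difference 4.26 points (0.60 to 7.91, p = 0.0249, adjusted p = 0.209, exact test). At AGP14 the CG difference was -1.55 points (-11.4 to 8.39). These intervals leave room for heat differences of several points at AGP14, where calls are fewest. The heat difference in ddm1 was then set against that in wt with a z statistic on the calls, and 0 of 9 tests passed, with 0 at an unadjusted p under 0.05 too, where the share of genes that passed was 2.42% for CG, 2.43% for CHG and 6.05% for CHH.

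The heat difference that passed with and without background matching was at TBL21 in poliv. Its CHG level fell by 4.02 points, from 5.09% in poliv control to 1.08% in poliv heat (-5.12 to -2.96, adjusted p = 3.1e-09, Fisher's exact test). It also held with the statistic scaled for the spread over all genes (adjusted p = 0.0228, exact test). The heat difference in poliv minus that in wt, where it was 0.17 points, was -4.19 points and passed the adjusted threshold of 0.05 by the same z statistic, a test added after the data were seen that 0.0779% of genes passed. The poliv control column pools 2 libraries, and a difference between these libraries and a difference between the groups cannot be told apart.

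**Figure D5:**
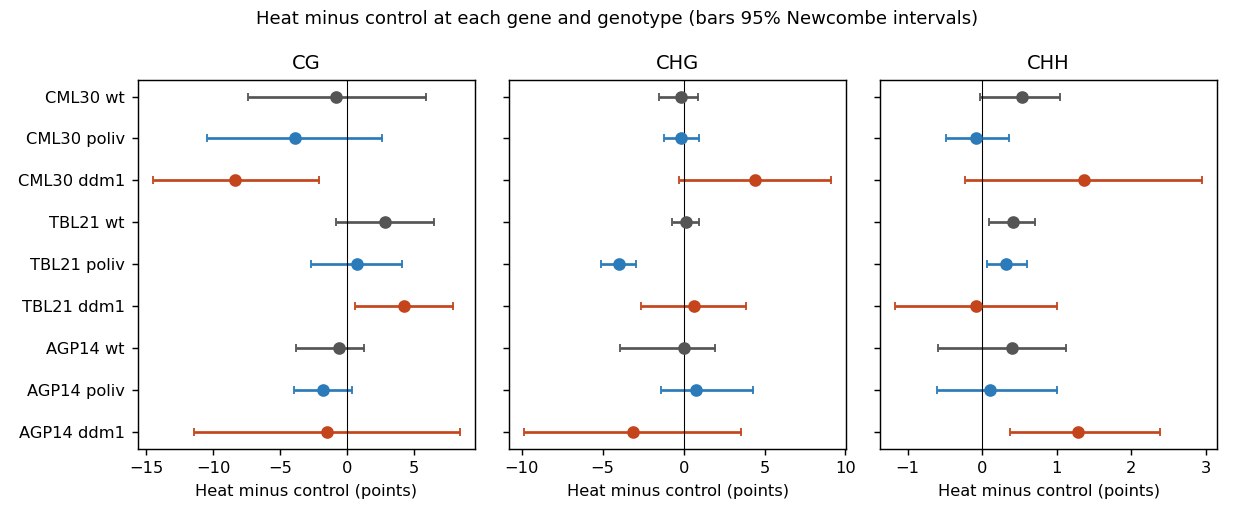
Heat minus control in percentage points (horizontal axis, 1 panel per context with its own range) for CML30, TBL21 and AGP14 in wt (grey), poliv (blue) and ddm1 (red), with 95% Newcombe intervals for counting error. The TBL21 CHG difference of -4.02 points in poliv is the one whose interval lies farthest from 0 relative to its width, and the intervals at AGP14 in ddm1 span up to 19.8 points.

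Between poliv and wt, 0 of 9 comparisons passed in control and heat alike, beside 5.85% of genes for CG, 0.571% for CHG and 1.06% for CHH, and in single pairs 1 of 9 in control and 2 of 9 in heat had an unadjusted p under 0.05. The control pair alone called TBL21 in CHG, 3.79 points higher in poliv (2.65 to 4.93, adjusted p = 3.2e-07, exact test), where 1.25% of genes passed, and the heat pair gave -0.40 points (-1.12 to 0.34). At CML30 and AGP14 the CHG differences between poliv and wt were between 0 and 0.78 points in both pairs, with intervals from -3.93 to 4.29 points at AGP14. The wt columns are the same ones to which ddm1 was compared.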

How the data were processed

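Bisulfite sequencing of 12 samples in 6 groups was analysed. Upstream work by the authors, per the labels and methods, comprised trimming (Trim Galore 0.6.2), alignment to TAIR10 and duplicate removal (Bismark 0.22.2) and cytosine calling (methylpy), and bedtools 2.27 is named as well. In the deposited table each feature has whole-number counts of methylated and of all cytosine calls for every context and group, and 18 columns of ready-made fractions were not used. The sources used here do not say how libraries of 1 group were pooled. Groups held 30597398 to 48850347 CG calls summed over features, and at least 21 calls stand behind each listed value.

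Levels were computed as methylated calls divided by all calls. Groups were compared gene by gene with Fisher's exact test, two-sided (2 times the smaller tail, SciPy 1.17.1), adjusted by Benjamini-Hochberg over the protein-coding genes that had values throughout (26975 in CG, 26952 in CHG, 27129 in CHH), within context and comparison, at 0.05. A mutant was called against wt where control and heat pairs passed in the same direction. The difference of heat effects used a z statistic with 1 call added to methylated and unmethylated calls. The exact test and the z statistic were run on simulated calls, drawn independently at the coverage of these data. Those calls held no spread beyond counting error, so the error rate under such spread was not checked. Alternatives were at least 100 calls per group, background matching (unmethylated calls converted at random, seed 7, up to the higher chloroplast level), dispersion scaling (the statistic divided by the square root of its median square over that expected), adjustment over all features, single pairs and, added after seeing the data, neighbours without the genes that overlap CML30 and TBL21. Symbols and positions came from the TAIR10.1 RefSeq annotation, to which 37898 features matched. The deposited table has no coordinates. Across 27039 genes the share of calls in CG followed the share of CG cytosines in these gene models (Pearson 0.95).

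The genes and lists were chosen with earlier results of these data known. Named were the 3 genes, the 2 nearest loci on each side, other neighbours called in CG or CHG among 10 per side, in each family and CHG list up to 3 called genes with the largest CHG gain and loss, and the 5 genes nearest in level. Of the called list members with a CHG loss none was past the test in CHG, and these are not named.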

Additional observations from a re-analysis of the deposited data

Results flagged for a closer look

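The heat effect on the CHG level of TBL21 differed between poliv and wt. The heat minus control difference was -4.02 points in poliv (105 of 2061 calls methylated in control and 19 of 1764 in heat) and 0.17 points in wt, so that the difference of heat effects was -4.19 points and passed the adjusted threshold of 0.05 (z statistic over all genes, a test added after the data were seen). The call held with at least 100 calls in every group, with matched background, with scaled dispersion and with adjustment over all features. No cause was tested.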

How the results depend on the processing

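No paired analysis was possible because the deposited columns hold 1 pooled value per group and carry no replicate number; for the same reason no library could be left out, so spread between libraries or plants is outside every p-value. Comparisons of heat with control at the 3 genes went from 3 calls to 1 with matched background and to 1 with scaled dispersion: the call kept was TBL21 in CHG in poliv, and those lost were TBL21 in CHH in wt (exact test, adjusted p = 1 both times, and 0.0644 over all features) and AGP14 in CHH in ddm1 (0.361 and 1). With the control pair alone poliv against wt gave 1 call instead of 0. With scaled dispersion the counts between ddm1 and wt fell as follows. At neighbours, overlapping genes included, they were 0 higher and 5 lower in CG and 4 higher in CHG, instead of 3, 16 and 7. At genes of the 3 families they were 0 higher and 2 lower in CG instead of 1 and 13, 3 higher in CHG instead of 5, and 1 higher in CHH instead of 2. Over all genes the scaled setting called 8 of 26975 higher and 3459 lower in CG. It called 1044 of 26952 higher in CHG and 206 of 27129 higher in CHH. Of the 94 genes tested in these families the control pair alone called 3 higher for CG, 10 higher for CHG, and for CHH 5 higher and 1 lower. Over all genes that pair called 593 of 26975 higher for CG and 2957 of 26952 higher for CHG. For CHH it called 938 of 27129 higher and 1152 lower. In the families the heat pair alone called 4 higher and 22 lower for CG, 10 and 2 for CHG, and 9 and 5 for CHH. With the pairs combined 0 were lower for CHG or CHH. Over all genes the heat pair called 766 of 26975 higher and 10591 lower for CG. It called 3520 of 26952 higher and 1306 lower for CHG, and 2224 of 27129 higher and 1683 lower for CHH. Of 44 neighbours tested the heat pair alone gave 6 higher and 3 lower in CHH instead of 3 and 1. Subtracting the chloroplast level moved none of the 9 ddm1 minus wt differences of the 3 genes beyond their counting error. Without AT2G15690 and AT5G15880, 1 neighbour instead of 3 was higher in CHH, an alternative added after seeing the data. Of the recomputed counts and differences 114 stayed within 1.5 times the main count or within counting error, and 23 did not.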
